A study of Mus musculus with 2 samples.

Results

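The genes described here encode the Sm core proteins, the cargo that the SMN complex loads onto small nuclear RNAs, together with LSm10 and LSm11. In the U7 particle LSm10 and LSm11 take the place of SmD1 and SmD2. The genes were chosen by name, as Snrpb, Snrpn, Snrpd1, Snrpd2, Snrpd3, Snrpe, Snrpf, Snrpg, Lsm10 and Lsm11. That makes 10 of the 45578 genes in the deposited table. All 10 were found, each under 1 Ensembl gene, and all 10 passed the minimum mean count of 10 footprints used for tests. Ribosome-protected fragments, or footprints, had been counted in the polysomes of whole brains from 2 mice at postnatal day 5. Both animals were of the genotype Smn+/-; SMN2tg/0 on an FVB background and form the only group, called control in the labels, so they carry 1 disrupted copy of Smn and a human SMN2 transgene and are not wild type. Such animals are the heterozygous carriers of the Taiwanese model of spinal muscular atrophy. Affected animals and littermates without the disruption were not analysed here, and the values say nothing of how SMN loss acts on these genes.

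Sm proteins form a ring of 7 subunits around a short uridine-rich site of the U1, U2, U4 and U5 small nuclear RNAs, and this ring is the shared core of the spliceosomal particles. In the cytoplasm the subunits arrive as the preformed units D1-D2, D3-B and E-F-G, and the SMN complex, whose loss causes spinal muscular atrophy, closes them around the RNA. In neurons SmN, encoded by the imprinted gene Snrpn, replaces SmB to a large extent. In the U7 particle, which directs the cutting of histone mRNA ends, LSm10 and LSm11 stand where D1 and D2 stand in the other rings.

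Replicate 1 held 1866831 footprints and replicate 2 held 5261878, a ratio of 2.82, so the values of replicate 2 carry the smaller counting error. Levels are given in CPM, counts scaled to the library total, and a gene with no footprint could still have had 1.61 CPM in replicate 1 and 0.570 CPM in replicate 2 (a floor of 3 counts). The 8 neuronal markers tested, among them Tubb3, Map2 and Snap25, had footprints in both libraries, with a summed level of 5419 CPM in replicate 1 and 4333 in replicate 2. Liver and skeletal muscle markers had been set to be at or near 0. The 3 liver markers Alb, Apoa2 and Fgb were at 0 in both. Of the 3 muscle markers, Ckm had 3 and 4 footprints and Mylpf 1 and 4. Acta1 was not near 0, at 140 and 264 footprints, or 75.0 and 50.2 CPM. Intervals below are Clopper-Pearson 95% intervals and cover counting error only, not variation between animals. PCR copies are not independent molecules. Where the counts hold such copies, the intervals are too narrow and the p-values of the exact tests below too small. In whole brain, fewer cells of a type and less RNA per cell cannot be told apart.

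Footprints on the 10 genes together made up 0.106% of the libraries. Their summed level was 1144 CPM (interval 1096 to 1194) in replicate 1 and 976 (949 to 1003) in replicate 2, a mean of 1060 ± 119 (SD, n = 2). The 8 Sm genes held 918 ± 104 CPM of this, and Lsm10 and Lsm11 together 142 ± 15.5. The replicate 1 sum was the higher one, and the intervals did not overlap.

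Snrpn (ENSMUSG00000102252), which encodes the neuronal SmN, had 685 footprints in replicate 1 and 1578 in replicate 2, or 367 and 299.9 CPM. Snrpb (ENSMUSG00000027404), which encodes the SmB protein of most tissues, had 397 and 954 footprints, or 213 and 181 CPM. Both genes had a lower CPM in replicate 2. The intervals of the replicates were apart for Snrpn (340 to 395 against 285 to 315) and overlapped for Snrpb (192 to 235 against 170 to 193). The share of all genes with intervals apart was not counted, here or for the genes below. In the test between replicates given further on, 17.4% of all genes were called. The levels of Snrpn and Snrpb are compared per length further on.

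Snrpd1 (ENSMUSG00000002477) encodes SmD1, which enters the ring paired with SmD2, and had 123 and 244 footprints, or 65.9 and 46.4 CPM. Snrpd2 (ENSMUSG00000040824), for its partner SmD2, had 256 and 455 footprints, or 137 and 86.5 CPM. Snrpd3 (ENSMUSG00000020180), for SmD3, which pairs with SmB or SmN, had 206 and 472 footprints, or 110.3 and 89.7 CPM. All 3 D genes had a lower CPM in replicate 2, and the intervals of the replicates were apart for Snrpd1 (54.8 to 78.6 against 40.7 to 52.6) and Snrpd2 (121 to 155 against 78.7 to 94.8).

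Snrpe (ENSMUSG00000090553), for SmE, had 75 and 424 footprints, or 40.2 (31.6 to 50.4) and 80.6 (73.1 to 88.6) CPM. It was the 1 member whose level was clearly higher in replicate 2. Snrpf (ENSMUSG00000020018), for SmF, had 57 and 143 footprints, or 30.5 (23.1 to 39.6) and 27.2 (22.9 to 32.01) CPM. Snrpg (ENSMUSG00000057278), for SmG, the smallest of the proteins, had 52 and 176 footprints, or 27.9 (20.8 to 36.5) and 33.4 (28.7 to 38.8) CPM. The intervals of the replicates overlapped for Snrpf and for Snrpg.

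Lsm10 (ENSMUSG00000050188), for a protein found in the U7 ring, had 20 and 48 footprints, or 10.7 (6.54 to 16.5) and 9.12 (6.73 to 12.1) CPM. Lsm11 (ENSMUSG00000044847) had 265 and 640 footprints, or 142 (125 to 160.1) and 122 (112 to 131) CPM. The intervals of the replicates overlapped for both genes. The coding sequence of Lsm11 has 1086 nucleotides and that of Lsm10 has 369.

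**Figure D1:**
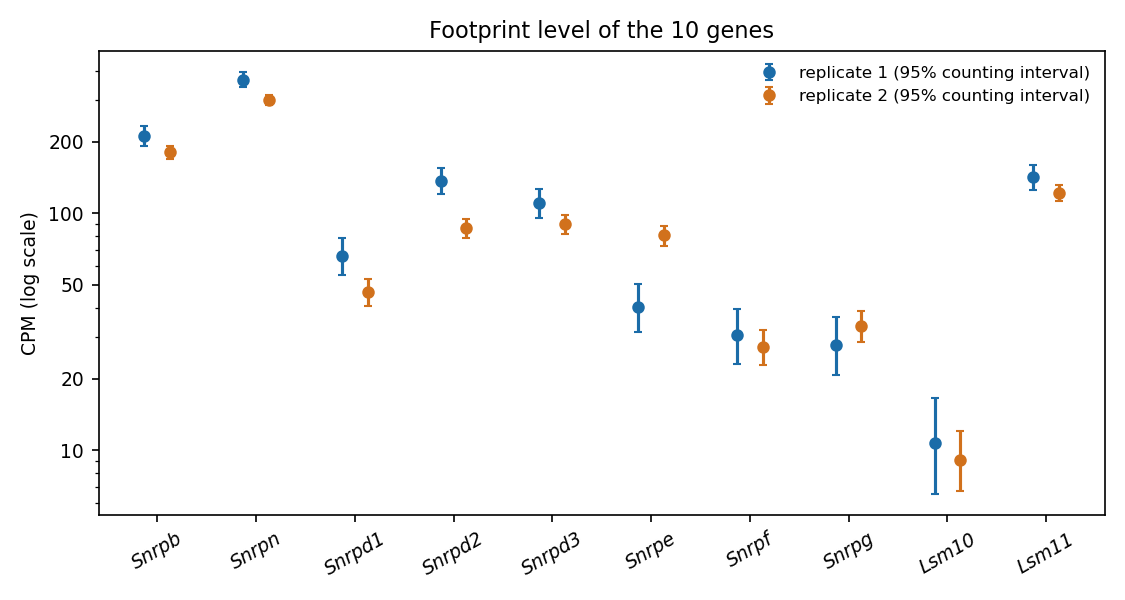
Level in CPM (log scale) of the 10 genes in replicate 1 (blue) and replicate 2 (orange), with 95% counting intervals as bars. Levels are not corrected for gene length; they run from 10.7 and 9.12 for Lsm10 to 367 and 299.9 for Snrpn, and Snrpe is the gene that sits clearly higher in replicate 2.

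A long reading frame holds more ribosomes than a short one at equal spacing, so levels of different genes were compared per kilobase of coding sequence, taken from the coding transcript with the highest mean count. This value is called the footprint density and is in CPM per kilobase. The proteins are short, from 76 residues for SmG to 361 for LSm11, with 231 for SmB and 240 for SmN.

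Snrpn had the highest density, at 508 in replicate 1 and 415 in replicate 2, a mean of 461 ± 65.6 (SD, n = 2). Next came Snrpd2 at 384 and 242 (mean 313 ± 100.3), Snrpb at 306 and 260.5 (mean 283 ± 31.9) and Snrpd3 at 289.6 and 235 (mean 263 ± 38.3). Snrpe had 144 and 289 (mean 216 ± 102), Snrpd1 183 and 129 (mean 156 ± 38.3) and Snrpg 121 and 145 (mean 133 ± 17.1). Lsm11 had 131 and 112 (mean 121 ± 13.2), Snrpf 117 and 104 (mean 111 ± 9.09) and Lsm10 29.0 and 24.7 (mean 26.9 ± 3.05). Snrpn was first and Lsm10 last in either replicate, with Snrpf just above Lsm10. The top place depended on the counting, since Snrpd2 passed Snrpn with the highest transcript of each gene (mean 606 against 484) and per transcript length (182 against 173). The highest-transcript setting drops the Snrpn-201 footprints, 305 and 755 of the 685 and 1578 on Snrpn. Snrpd2 has 1 transcript and loses none, so that setting lowers Snrpn against Snrpd2 by construction. Snrpe moved from sixth place in replicate 1 to the second in replicate 2.

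Most neighbours in this order could not be separated. Each of the 9 neighbouring pairs was tested in each replicate by a two-sided exact binomial test of the counts given the coding lengths, with Benjamini-Hochberg adjustment over the 18 tests. Only 2 pairs differed in both replicates in the same direction. Snrpn was above Snrpd2 by 1.32-fold (interval 1.14 to 1.53, adjusted p = 0.000353, exact binomial test) in replicate 1 and by 1.71-fold (1.54 to 1.90, adjusted p = 7.76e-25) in replicate 2. This difference was not kept with the highest transcript of each gene, at 0.733 (0.624 to 0.862) and 0.893 (0.796 to 1.004), or per transcript length, at 0.849 (0.734 to 0.984) and 1.10 (0.991 to 1.22). The highest-transcript setting drops 1 of the 2 Snrpn transcripts and nothing of Snrpd2, so it lowers this ratio by construction. Snrpf was above Lsm10 by 4.03-fold (2.38 to 7.08, adjusted p = 3.93e-08, exact binomial test) and by 4.21-fold (3.02 to 5.97, adjusted p = 5.85e-20). Snrpb and Snrpd3, whose proteins meet in 1 unit, had a density ratio of 1.05 (0.889 to 1.25) in replicate 1 and 1.11 (0.990 to 1.24) in replicate 2. It was 0.447 (0.351 to 0.568) and 0.459 (0.392 to 0.537) with protein-coding transcripts only, and 5.03 and 5.27 per transcript length. Snrpd3 and Snrpe differed in both replicates but in opposite directions, with Snrpd3 over Snrpe at 2.01 (1.54 to 2.66) and then 0.815 (0.713 to 0.932).

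**Figure D2:**
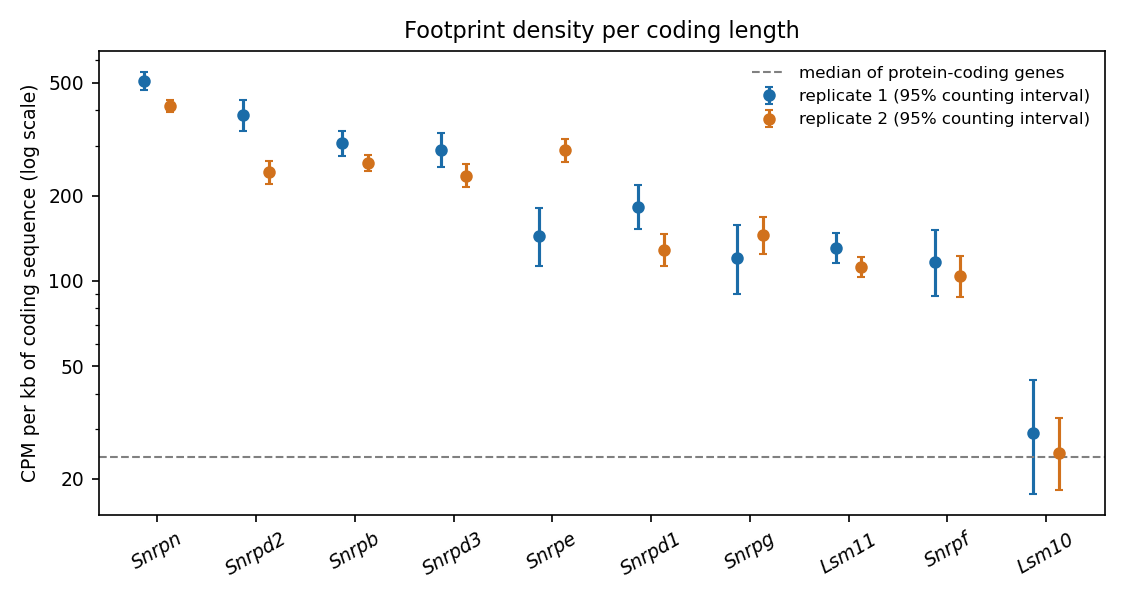
Footprint density per kilobase of coding sequence (log scale) of the 10 genes in order of their mean, for replicate 1 (blue) and replicate 2 (orange) with 95% counting intervals; the dashed line is the median of protein-coding genes, 23.9. The 8 Sm genes and Lsm11 lie above 100 in both replicates, and Lsm10 lies near the dashed line.

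Among the 13317 protein-coding genes whose mean count reached 10, the median of the mean density was 23.9, and all 10 members lay above it. Snrpn stood at percentile 98.2, Snrpd2 at 96.3, Snrpb at 95.7, Snrpd3 at 95.2, Snrpe at 93.7, Snrpd1 at 90.1, Snrpg at 88.1, Lsm11 at 86.9 and Snrpf at 85.7. Lsm10 stood at percentile 53.6, and in replicate 2 alone it was just under the median, at 49.6.

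Short genes have high densities in these libraries, so length moves with this ranking. The median density was 177 in replicate 1 and 161 in replicate 2 for the 299 genes with a coding sequence of up to 300 nucleotides, and 18.2 and 20.1 for the 4841 genes with 1201 to 2400. Across all 13317 genes Spearman's rho between coding length and density was -0.448 in replicate 1 and -0.450 in replicate 2, a description across genes that share a library. The minimum count removes short genes of low density, and the counts include footprints on untranslated regions.

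Snrpe, Snrpf and Snrpg, with 279, 261 and 231 coding nucleotides, belong to the shortest of these classes. There Snrpf (117 and 104) and Snrpg (121 and 145) were below the class median in both replicates, while Snrpe was below it in replicate 1 (144) and above it in replicate 2 (289). Among the 5474 genes with a coding sequence of 200 to 1200 nucleotides, a class set after the data were examined, the median was 46.2, and 9 of the 10 members were above it. There Snrpn stood at percentile 96.5, Snrpd2 at 92.7, Snrpb at 91.6 and Snrpd3 at 90.6, while Snrpf stood at 74.6 and Lsm10 at 35.1.

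**Figure D3:**
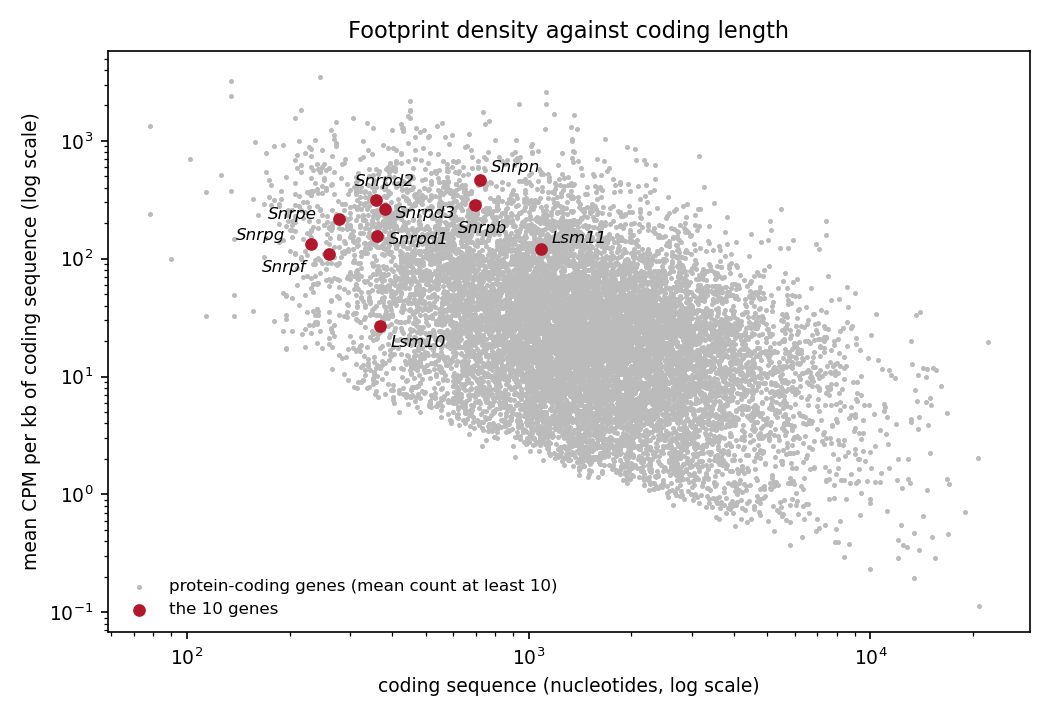
Mean footprint density against coding length (both log scale) for 13317 protein-coding genes (grey) and the 10 members (red). Density falls with length, with Spearman's rho of -0.448 and -0.450 in the replicates, and the lower left edge is set by the minimum count. Snrpn and Lsm11 lie toward the top for their length, and Lsm10 lies low among genes of its length.

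One copy of each subunit goes into a ring, so the densities of the 7 positions were set side by side, with Snrpb and Snrpn added for the position they share. The sum for B and N was 813 in replicate 1 and 675 in replicate 2. With all transcripts counted per coding length it was the highest position in both replicates, and Snrpf the lowest, a fold of 6.95 in replicate 1 and 6.49 in replicate 2. Among the other 6 positions the fold from the highest to the lowest was 3.28 in replicate 1, from Snrpd2 to Snrpf, and 2.77 in replicate 2, from Snrpe to Snrpf.

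The partners of a preformed unit were set side by side. Snrpd2 was above Snrpd1 by 2.10-fold (interval 1.69 to 2.62) in replicate 1 and by 1.88-fold (1.61 to 2.21) in replicate 2. In the E-F-G unit, Snrpf over Snrpg was 0.970 (0.654 to 1.44) in replicate 1 and 0.719 (0.573 to 0.902) in replicate 2. Snrpe over Snrpg was 1.19 (0.827 to 1.74) and 1.99 (1.67 to 2.39), so the standing of SmE within its unit depended on the replicate. These pairs were set by the units and their ratios were not tested. Density reflects ribosomes on mRNA, not protein amount, and matched RNA levels were not used here.

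For the paralogues SmN and SmB the count per coding length was higher for Snrpn. The ratio of Snrpn to Snrpb was 1.66 (interval 1.47 to 1.88, p = 3.35e-16, two-sided exact binomial test) in replicate 1 and 1.59 (1.47 to 1.73, p = 1.34e-30) in replicate 2. In these terms Snrpn made up 62.4% (59.4 to 65.3) of the B and N total in replicate 1 and 61.4% (59.5 to 63.3) in replicate 2. A difference of the ratio between the replicates was not detected (Fisher's exact test, p = 0.599), although both genes had lower levels in replicate 2.

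The size of the Snrpn excess depended on which transcripts were counted. Snrpb has 4 annotated transcripts, and footprints were spread almost evenly over 3 of them. Snrpb-001, the coding transcript, had 129 footprints in replicate 1 and 297 in replicate 2. Snrpb-002, annotated as a target of nonsense-mediated decay, had 121 and 304, and Snrpb-003, annotated as a retained intron, had 126 and 283. The second retained-intron form, Snrpb-004, had 21 and 70. Transcripts not annotated as protein coding therefore took 67.5% (62.7 to 72.1) of the Snrpb footprints in replicate 1 and 68.9% (65.8 to 71.8) in replicate 2. For all protein-coding genes at the same minimum count this share was 19.0% and 20.5%. These transcripts overlap the coding one, and the table does not show on which of them a shared fragment arose.

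Snrpn has 2 transcripts, both coding, with 380 and 823 footprints on Snrpn-001 and 305 and 755 on Snrpn-201. Counting only protein-coding transcripts thus removed most of the Snrpb count and none of the Snrpn count, and the ratio became 5.11. The ratio was 2.75 with the highest transcript of each gene. Per transcript length in place of coding length it was 1.02 (larger p of the 2 replicates 0.886, exact binomial test), because Snrpn-001 has 1932 nucleotides and Snrpb-001 has 1161.

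The Snrpn count also touches that of Snurf (ENSMUSG00000102627), a short reading frame that lies upstream of the SmN frame on the same bicistronic mRNA; the RefSeq gene table also has both genes overlapping. Snurf had 120 footprints in replicate 1 and 255 in replicate 2 on a single transcript of 216 nucleotides, all of it coding, at a density of 298 and 224. Both Snrpn transcripts carry a leader long enough to hold this frame, at 464 and 615 nucleotides. If fragments of the Snurf frame were split evenly over Snurf-001 and the 2 Snrpn transcripts, 240 footprints in replicate 1 and 510 in replicate 2 on Snrpn transcripts would belong to Snurf. Removing them, a setting chosen after the data were examined, left ratios of Snrpn to Snrpb of 1.08 in both replicates. The Snrpn density was then 329.7 and 281, which is below Snrpd2 in replicate 1 (384) and above it in replicate 2 (242). Removing the Snurf count once left 1.37 and 1.34. Sequences that would show how fragments were shared were not used here, so the part of Snurf footprints in the Snrpn count was not tested.

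**Figure D4:**
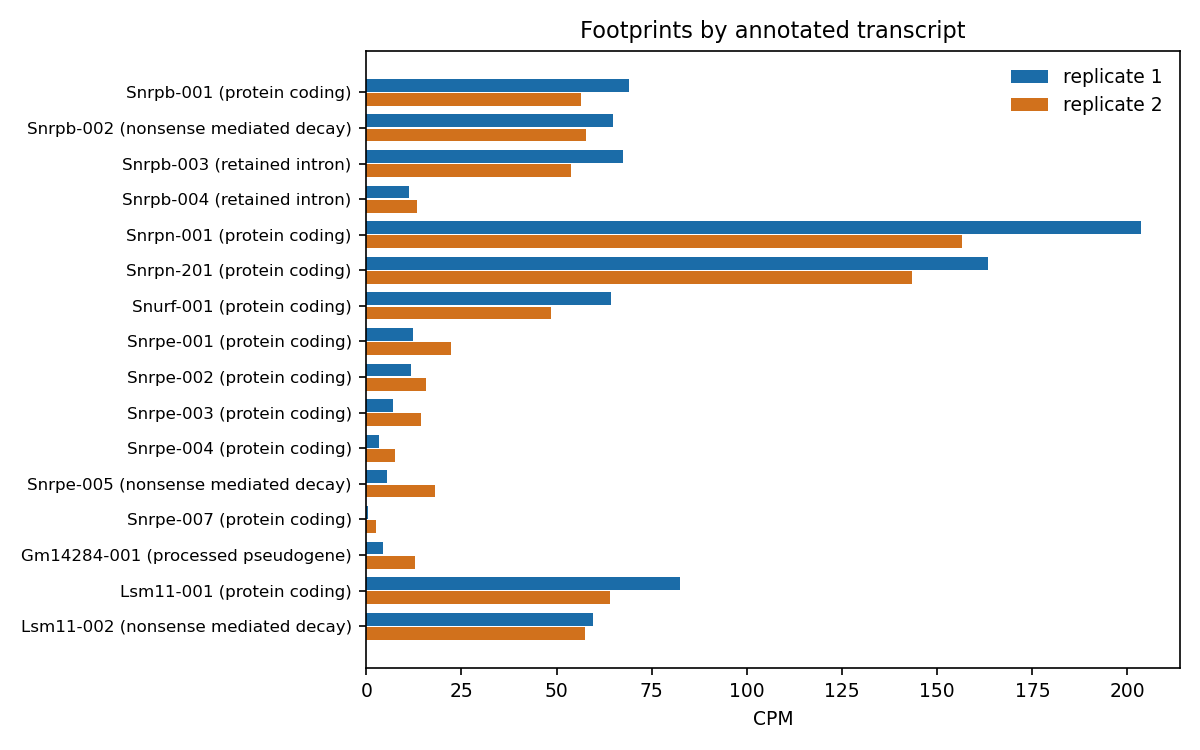
Level in CPM of each annotated transcript of Snrpb, Snrpn, Snurf, Snrpe, Gm14284 and Lsm11, with replicate 1 in blue and replicate 2 in orange. Snrpb footprints lie about evenly on a coding, a decay-target and a retained-intron transcript, the 2 Snrpn transcripts are highest, and 6 Snrpe transcripts and the Gm14284 pseudogene are all higher in replicate 2.

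The proteins specific to the U7 particle were compared with those they replace. Snrpd1 was above Lsm10 in density by 6.30-fold (interval 3.91 to 10.7) in replicate 1 and by 5.21-fold (3.81 to 7.26) in replicate 2. Snrpd2 was above Lsm11 by 2.94-fold (2.47 to 3.50) and 2.16-fold (1.91 to 2.44). Lsm11, which carries a long amino-terminal extension used in histone mRNA cutting, was above its ring neighbour Lsm10 by 4.50-fold (2.86 to 7.49) and 4.53-fold (3.38 to 6.21). The fold was 2.62 and 2.39 with protein-coding transcripts only, and 1.94 and 1.95 per transcript length. The Lsm11 counts were divided between the coding Lsm11-001, with 154 and 337 footprints, and Lsm11-002, annotated as a decay target with the same coding length, with 111 and 303. Lsm11-001 has a 3′ untranslated region of 5344 nucleotides, and the table gives counts for whole transcripts, so footprints outside the reading frame cannot be taken off. Per transcript length, with 943 nucleotides for Lsm10-001 and 6453 for Lsm11-001, 9 of the 10 members were above the median of coding genes, and Lsm10 was below it.

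The replicates differed at most of the members. Counts were compared by a two-sided exact binomial test against TMM-scaled library sizes, where TMM, the trimmed mean of M values, sets the typical gene to no change. Benjamini-Hochberg adjustment ran over the 16427 genes whose mean count reached 10. Across all of them 17.4% were called at an adjusted p under 0.05, with 5.95% higher and 11.5% lower in replicate 2. Of the 10 members 7 were called, 1 higher and 6 lower, and 3 were not. The median log2 ratio of replicate 2 over replicate 1 was -0.35 over the members and 0.01 over all genes tested. The test compares 2 libraries for counting noise and does not concern a condition. With the highest transcript of each gene 4 members were called, where 9.41% of all genes were, and an exact test of edgeR that adds a common dispersion called none of the members, where 0.067% of all genes were called, and gave 2 an unadjusted p under 0.05.

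The share of calls was higher among genes as dense as these. In the densest 10% of protein-coding genes, which hold Snrpb, Snrpn, Snrpd1, Snrpd2, Snrpd3 and Snrpe, 57.8% were called and 51.5% were called lower, with a median log2 ratio of -0.26. In the next 10%, which hold Snrpf, Snrpg and Lsm11, 35.8% were called and the median was -0.10. In the 10% just above the median, with Lsm10, 17.5% were called and the median was 0.03. Snrpe in the densest 10% and Snrpg in the next 10% had ratios above 0. Calls also rose with the count, to 55% in the 10% of protein-coding genes with the most footprints. Whether the members' lower values in replicate 2 go with their density or their counts was not tested.

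Snrpd2 had the largest fall, with a log2 ratio of -0.79 (interval -1.02 to -0.56, adjusted p = 5.14e-10, exact binomial test). Snrpd1 followed at -0.63 (-0.95 to -0.31, adjusted p = 0.00156), then Snrpd3 at -0.42 (-0.66 to -0.18, adjusted p = 0.00560) and Snrpn at -0.42 (-0.55 to -0.29, adjusted p = 2.30e-08). Snrpb had -0.36 (adjusted p = 0.000716) and Lsm11 -0.35 (adjusted p = 0.0100). Scaling to library totals raised the log2 ratios by a median of 0.12. It left 5 members called, where 19% of all genes were called (11.5% higher and 7.47% lower), and ended the calls of Snrpd3 (adjusted p = 0.0683) and Lsm11 (adjusted p = 0.138). With TMM-scaled sizes, where 11.5% of all genes were called lower and 5.95% higher, 5 of the 8 neuronal markers were called lower and 1 higher. All 4 red cell markers were called lower, and of the 5 oligodendrocyte markers 2 were higher and 2 lower. In the 10% of protein-coding genes with the most footprints 41.1% were called lower. The part of cell makeup in the Snrpn difference was not tested.

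Snrpe went the other way, with a log2 ratio of 0.87 (interval 0.52 to 1.25, adjusted p = 7.22e-06, exact binomial test). With library totals it was 1.00 (adjusted p = 1.17e-07). Each of its 6 transcripts had a higher CPM in replicate 2. Snrpe-001 had 23 and 117 footprints, Snrpe-002 had 22 and 83, and Snrpe-005, annotated as a decay target, had 10 and 95. With Snrpe-001 alone the log2 ratio was 0.79 and the call was lost (adjusted p = 0.116). Snrpg had 0.14 (-0.32 to 0.61), Snrpf -0.29 (-0.75 to 0.18) and Lsm10 -0.34 (-1.14 to 0.47), and none of these was called.

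Gm14284 (ENSMUSG00000082044), an annotated processed pseudogene that the RefSeq table lists as Snrpert, was the 1 named copy of a member found in the table. Its length of 279 nucleotides equals the coding length of Snrpe. It had 8 footprints in replicate 1 and 67 in replicate 2, a log2 ratio of 1.35 (adjusted p = 0.0292, exact binomial test), and so moved in the direction of Snrpe. It held 9.64% of the footprints of both genes together in replicate 1 and 13.6% in replicate 2. Whether fragments of Snrpe also match Gm14284 was not tested, since sequences were not used here. Snrpe stayed called with the counts added. Of the 5 markers of cycling cells, Ccnb1 (1.03) and Cdk1 (1.08) were called higher in replicate 2, where 5.95% of all genes tested were. Top2a (0.43), Mki67 (0.37) and Pcna (0.20) were not called. The relation of these markers to Snrpe was not tested.

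**Figure D5:**
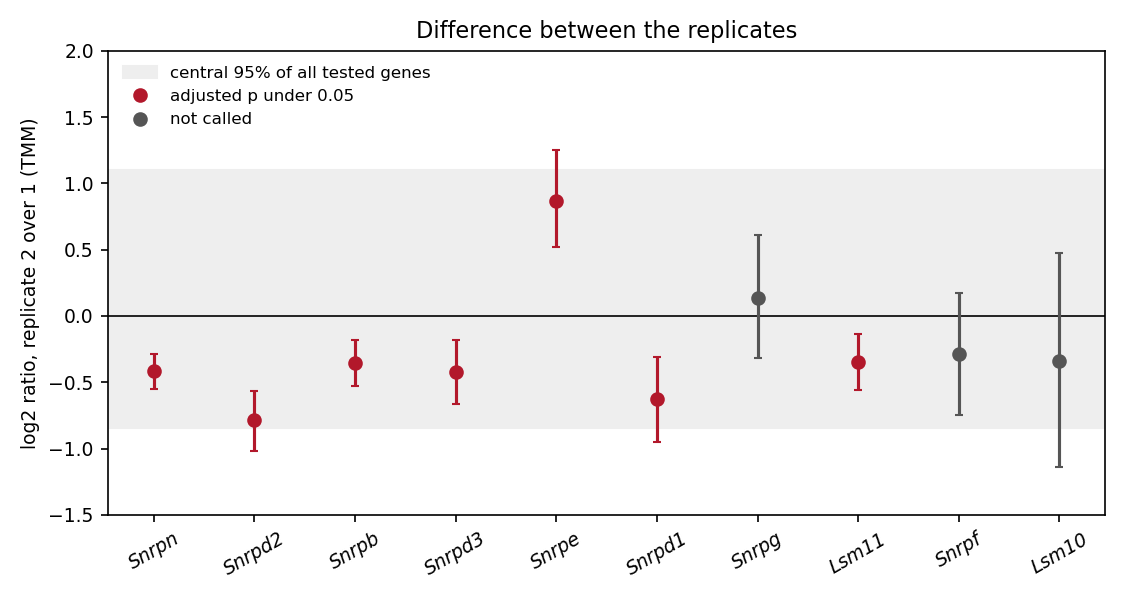
Log2 ratio of replicate 2 over replicate 1 for the 10 genes with 95% counting intervals, in red where the adjusted p was under 0.05 in the exact binomial test and in grey otherwise; the band holds the central 95% of all 16427 tested genes. Every member lies inside the band, 6 called genes lie below 0, and Snrpe lies above it at 0.87.

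Most genes in the lists below had lower densities than most Sm genes. Coding length differs between these genes, and density falls with length. The lists hold 68 genes with Snurf left out, and 5 of these are imprinted neighbours of Snrpn, not pathway proteins. Of the 68, 12 had a mean density above that of Snrpf, at 111, and 1 of the 12 is the imprinted Ndn. Snrpf was the lowest Sm gene in this counting. The lowest Sm gene was Snrpb with protein-coding transcripts only, Snrpe with the highest transcript and Snrpd3 per transcript length. The LSm proteins Lsm1 to Lsm8 form the ring of U6 RNA and the related cytoplasmic ring of mRNA decay, and 4 of these 8 genes were above Snrpf. Lsm6 was highest at 211 ± 30.2 (SD, n = 2) and Lsm1, of the cytoplasmic ring, lowest at 42.6 ± 1.88. In the comparison of replicates Lsm3 was called higher (log2 ratio 1.07) and Lsm4 lower (-0.51) in replicate 2. Across all genes tested 5.95% were called higher and 11.5% lower.

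Among 25 listed proteins of spliceosomal particles outside the Sm and LSm rings, 4 were above Snrpf, namely Nhp2l1, Snrpa, Snrpb2 and Snrpc. Nhp2l1, which binds U4 RNA, was highest at 151 ± 13.9 and Prpf3 lowest at 11.4 ± 2.40. In this list 2 genes were called higher in replicate 2, Prpf8 (0.24) and Eftud2 (0.32), and 3 lower, Snrnp70 (-0.83), Sf3a2 (-0.37) and Sf3b2 (-0.59). The other 20 were not called, and 17.4% of all genes tested were called in either direction.

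The factors that handle Sm proteins before SMN were less dense than the Sm genes in this counting, and none of the 5 was above Snrpf. Their coding sequences are longer, with 726 nucleotides for Clns1a and 1914 for Prmt5 against 261 for Snrpf, and density falls with length. Set against the median of its own length class, Snrpf was below it in both replicates. Riok1 was below its class median too, and the other factors were above theirs. Clns1a, the chaperone pICln that holds the Sm units, was highest at 94.6 ± 12.3. It was called lower in replicate 2 (-0.39), as were 11.5% of all genes tested. Prmt5, the methyltransferase that modifies SmB, SmD1 and SmD3, had 63.6 ± 1.82, its partner Wdr77 had 66.4 ± 11.4, and Riok1 was lowest at 9.29 ± 2.47.

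The SMN complex had a median density of 15.2 over 9 genes, against 186 over the 10 members. Strap was highest at 125.7 ± 15.0, and Gemin4 was lowest at 1.69 ± 0.484. Strap was called lower in replicate 2 (-0.37), as were 11.5% of all genes tested. Smn1 itself had 49.7 ± 8.20, on a count that may hold footprints of the human transgene, whose part was not tested. The coding sequences of several of these genes are long, at 4512 nucleotides for Gemin5 and 3177 for Gemin4, and density falls with length.

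Among 8 genes of cap maturation and transport, Ncbp2 was highest at 131 ± 26.2 and Tgs1, which makes the trimethyl cap of small nuclear RNAs, lowest at 11.6 ± 2.49. Kpnb1 was called lower (-0.34) and Xpo1 higher (0.78) in replicate 2, where 11.5% of all genes tested were called lower and 5.95% higher. Of 8 genes of histone mRNA end processing, where LSm10 and LSm11 act, 7 were tested and none was called. The share called over all genes tested was 17.4%. Slbp, which binds the histone stem-loop, was highest at 120.2 ± 23.5 and Casp8ap2 lowest among the tested genes at 2.62 ± 0.359, on either side of Lsm10 at 26.9. Of the imprinted genes beside Snrpn, Ndn had 479 ± 214 and Magel2 3.84 ± 1.25. Ndn (-1.07), Mkrn3 (-0.64) and Snurf (-0.53) were called lower in replicate 2, as was Snrpn, and Ube3a was called higher (0.42). Magel2 and Peg12 were not called. The shares over all genes tested were 11.5% lower and 5.95% higher. In the densest 10% of protein-coding genes, where Ndn, Snurf and Snrpn lie, 51.5% were called lower. Snurf and Snrpn may share fragments, so their calls may not be independent.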

How the data were processed

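Footprints from brain polysomes of 2 mice at postnatal day 5 (1 group, biological replicates 1 and 2) were analysed. The deposited table gives raw counts for each Ensembl transcript and its annotated lengths. The submitters' processing notes name Trimmomatic 0.36, Bowtie2 2.2.6, SAMtools and build GRCm38.p4. The counting tool, annotation release, strand and treatment of shared fragments are not given in the sources used here.

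Symbols are transcript names without the trailing number. Counts of all transcripts of a gene were summed. In 40 pairs of same-gene transcripts with identical lengths, the mean squared difference over the sum was 1.01, the value for fragments counted once (0 if counted on both). Scaling to library totals gave CPM, and density divides these by coding length. Replicates were compared by an exact binomial test (scipy 1.17.1) with TMM sizes from edgeR 4.0.16, a mean count of at least 10 and a prior of 0.5 CPM in log2 ratios. The test was checked on simulated counts that held counting noise alone, which is what it assumes. This check says nothing of how the test behaves with added variation between animals or libraries. A quasi-likelihood test needs a contrast between groups and could not be fitted. Alternatives, including DESeq2 1.42.0 size factors, are in the closing section.

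Members and gene lists were chosen with earlier results of these data known. Named were all members, Snurf, named pseudogene copies, and from each list the highest, the lowest and the called genes; Prmt5, Wdr77, Smn1, Gemin5, Snrpa, Snrpb2 and Snrpc were added after their values were seen. Symbols of all 10 members matched the RefSeq table of GRCm38.p6, used for names and overlap alone. No coordinates or sequences are given.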

Additional observations from a re-analysis of the deposited data

How the results depend on the processing

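The summed level of the members, 1060 CPM, was 1248 with the highest transcript of each gene, where the library total is also that of highest transcripts alone, and 1333 over the total of transcripts with a coding sequence, and ran from 976 to 1144 when a replicate was left out. The median density of the members, taken per replicate and averaged, was 177; it was 229.9 with the highest transcript and its smaller total, 196 with 30 nucleotides taken off the coding length, 77.3 per transcript length and 222 over the coding total, and 164 to 190.1 when a replicate was left out. The number of members above the median density was 9 or 10 in all settings tried, with Lsm10 the 1 not above it per transcript length. The ratio of Snrpn to Snrpb, 1.63 over the replicates, was 1.02 and no longer past the threshold per transcript length, and 1.35 or 1.08 with the Snurf count removed once or 2 times; 5.11 with protein-coding transcripts only and 2.75 with the highest transcript of both genes kept the call, and leaving out a replicate gave 1.59 to 1.66. Neighbours that differed numbered 2, and 4 with protein-coding transcripts only, 3 without replicate 1 and 4 without replicate 2. Members called between the replicates numbered 7 (17.4% of all genes), and 4 with the highest transcript (9.41%). They numbered 7 with DESeq2 size factors (17.4%) and with all genes that had a count (9.93%), 6 with protein-coding transcripts only (18.2%) and 5 with library totals (19%). They numbered 0 with edgeR's exact test and the common dispersion, which called 11 of 16427 genes (0.067%) and gave 2 members an unadjusted p under 0.05; its dispersion comes from the same 2 libraries. No alternative turned the direction of a member's log2 ratio, in 61 comparisons, of which 13 lost the call. Many of these settings change only the size factors, the genes tested or the test. They reuse the same counts, so the direction could hardly turn in them and their number is no measure of robustness. The cause of these shifts was not tested beyond what each setting changes by construction. No paired analysis was possible because the design has 1 group. Lsm10, with 20 and 48 footprints, is the member whose values depth limits most.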
